A study of Mus musculus with 94 samples.

Results

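Wild-type haematopoietic stem cells with high and low levels of immediate early gene transcripts were compared within cells of a single label prefix. The 48 cells labelled Ski-WT, out of 94 cells in the series, were ranked by a score, the mean log2(TPM + 1) of Fos, Fosb, Jun, Junb, Egr1 and Dusp1. The 16 cells with the highest score are called high-score cells, the 16 with the lowest are called low-score cells, and the other 16 are the middle cells. The cells were thus chosen by the measured values of these 6 genes, which are given below as a description.

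All cells came from C57BL/6 mice and were stem cells of fetal liver origin that had been transplanted 6 months earlier. They were recovered from crushed hindlimb bone marrow by CD117 bead enrichment and by a sort for cells that were Cd45.2+, c-Kit+, Sca-1+ and Cd150+ and that were Lineage- and Cd48-, then captured and lysed on a Fluidigm C1 chip. The high-score and low-score cells share genotype, strain, gate and the label prefix 061016, whose meaning the labels do not give. The other 46 cells are labelled Ski-KO, a loss of the Ski co-repressor, and carry the prefixes 051716 (27 cells) and 051816 (19 cells). How much of Ski was removed is not in the labels. Since the labels tie no cell to an animal or culture, the Ski-WT cells count as 1 sample and cells are not replicates. All differences below are therefore descriptions without a test.

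Fos and Jun family proteins pair to form AP-1, a transcription factor that binds DNA near many genes of growth and stress. Growth factor, adhesion and stress signals reach the genes of this class through MAP kinases, serum response factor and CREB, without new protein synthesis, and the transcripts last only minutes to hours. Dusp1 encodes a phosphatase that switches MAP kinases off, Egr1 encodes a zinc finger factor known for its part in stem cell quiescence, and Zfp36 encodes tristetraprolin, which speeds the decay of AU-rich mRNAs. Enzymatic or mechanical handling of tissue is also known to induce these genes.

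Promoter sequences are shown for 2 of the score genes, Fos and Dusp1, and for Btg2 and Zfp36, which were not in the score but were higher in the high-score cells. Each run is the 250 bases before the start of the gene in the RefSeq table of GRCm38.p6, read 5′ to 3′ on the strand of the gene. The deposited values were made on mm9, so these positions belong to another build than the data. Capitals mark motifs that were searched on both strands, namely TATAAA (a core promoter element), TGACGTCA and its shorter form TGACGT (sites of the CREB type), TGANTCA (an AP-1 site) and the CArG box (the site of serum response factor).
Fos, chr12:85473640-85473889, plus strand: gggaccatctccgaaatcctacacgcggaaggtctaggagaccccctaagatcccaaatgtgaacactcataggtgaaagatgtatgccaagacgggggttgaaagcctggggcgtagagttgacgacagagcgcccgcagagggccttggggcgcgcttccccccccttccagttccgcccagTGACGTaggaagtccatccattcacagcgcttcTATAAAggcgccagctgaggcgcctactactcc
Dusp1, chr17:26508473-26508722, minus strand: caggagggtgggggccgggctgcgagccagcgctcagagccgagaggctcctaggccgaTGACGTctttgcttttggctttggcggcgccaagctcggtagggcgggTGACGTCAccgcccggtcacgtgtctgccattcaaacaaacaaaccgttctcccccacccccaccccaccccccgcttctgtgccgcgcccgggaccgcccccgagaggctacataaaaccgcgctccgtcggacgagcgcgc
Btg2, chr1:134079156-134079405, minus strand: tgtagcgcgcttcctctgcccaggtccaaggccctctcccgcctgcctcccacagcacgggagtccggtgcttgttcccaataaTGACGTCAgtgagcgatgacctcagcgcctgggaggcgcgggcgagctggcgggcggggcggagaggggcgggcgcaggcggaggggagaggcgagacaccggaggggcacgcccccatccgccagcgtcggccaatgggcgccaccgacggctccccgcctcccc
Zfp36, chr7:28379229-28379478, minus strand: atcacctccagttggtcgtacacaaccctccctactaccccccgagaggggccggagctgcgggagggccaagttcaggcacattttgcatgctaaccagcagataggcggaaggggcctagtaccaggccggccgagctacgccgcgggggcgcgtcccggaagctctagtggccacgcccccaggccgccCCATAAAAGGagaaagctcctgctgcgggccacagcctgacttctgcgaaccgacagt
Fos held 1 TATAAA and 1 TGACGT, and Zfp36 held 1 CArG box. Dusp1 and Btg2 each held the full palindrome TGACGTCA, which also counts as TGACGT on both strands, and Dusp1 held 1 more TGACGT. Among 32851 promoters of the same length in that table, 12.4% held TATAAA, 6.47% TGACGT, 1.55% TGACGTCA, 6.75% TGANTCA and 1.47% a CArG box. None of the motifs was found in the windows of Fosb, Jun, Junb and Klf4, which says only that these letters are not in those bases. Egr1 and Ier2 have no entry in the table.

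The score ran from 0.64 to 4.48 in the low-score cells, with a median of 3.42, and from 6.57 to 8.29 in the high-score cells, with a median of 6.997. The cells formed a continuous range, as the plot of ranked scores shows. The highest low-score cell, at 4.48, lay next to a middle cell at 4.77, and the lowest high-score cell, at 6.57, lay next to a middle cell at 6.37. The 6 genes made up a median of 0.330% of all transcripts in the high-score cells and 0.0398% in the low-score cells.

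**Figure D1:**
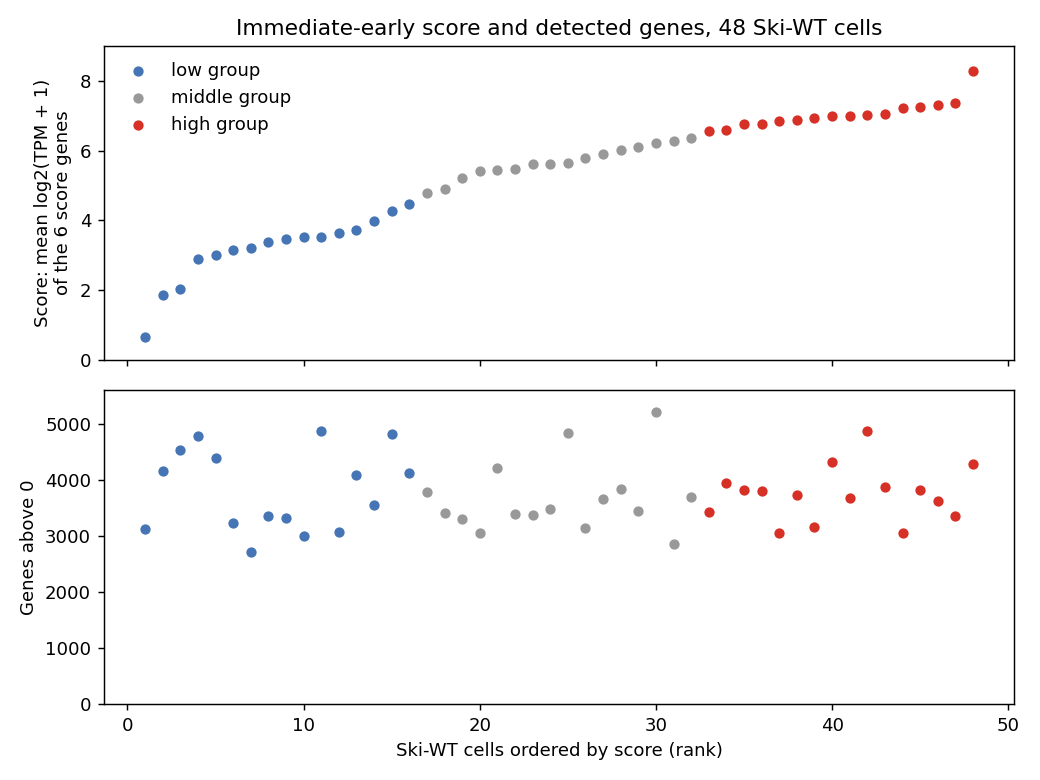
Score of each of the 48 Ski-WT cells (vertical axis, mean log2(TPM + 1) of the 6 score genes) against its rank (horizontal axis), coloured by low, middle and high group, with the number of genes above 0 in the same cells in the lower panel. Neighbouring cells across the boundaries at 4.48 and 4.77 and at 6.37 and 6.57 differ little, and genes above 0 spread over a like range in each group.

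Fos, Dusp1 and Egr1 set most of the distance between the groups. Fos had a lowest, median and highest log2(TPM + 1) of 3.16, 10.52 and 12.01 in the high-score cells and 0, 1.60 and 10.05 in the low-score cells. Fos was at 5 TPM or more in all 16 high-score cells, 15 middle cells and 7 low-score cells. Several low-score cells therefore held Fos at the level of high-score cells, and the groups overlapped.

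Dusp1 had 3.73, 8.49 and 11.16 in the high-score cells and 0, 1.09 and 9.85 in the low-score cells, and reached 5 TPM in 16, 13 and 5 cells of the high, middle and low groups. Egr1 had 5.16, 9.53 and 11.53 against 0.26, 3.48 and 9.64, and reached 5 TPM in 16, 16 and 9 cells. As for Fos, the highest low-score cell lay well above the lowest high-score cell for both genes. The mean differences between high-score and low-score cells were 5.90 for Dusp1, 5.74 for Fos and 4.85 for Egr1.

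The remaining members of the score contributed less. Fosb, a Fos paralogue, differed by 3.41 and was at 5 TPM or more in 15 high-score, 4 middle and 5 low-score cells. Jun differed by 2.25 but was present in nearly every cell, at 5 TPM or more in 15, 16 and 14 cells. Junb, which encodes an AP-1 subunit with weaker activity than Jun, was scarce and differed by 1.12, with 8, 9 and 4 cells.

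Even inside the score the genes did not move as 1 block from cell to cell. Over the 48 cells, which share a label prefix, Pearson's r was 0.48 between Fos and Egr1, 0.36 between Fosb and Dusp1 and 0.31 between Fos and Dusp1. Junb had r from -0.13 to 0.13 with the other 5. In sparse single-cell values such coefficients are descriptions only. Most low-score cells kept part of the program, with a median of 3 of the 6 genes at 5 TPM or more (range 0 to 5), against 5 (range 5 to 6) in the high-score cells.

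The high-score and low-score cells had close medians in the technical measures that could be read from the table. Genes above 0 per cell had a median of 3764.5 in the high-score cells (range 3052 to 4881), 3469.5 in the middle cells and 3823 in the low-score cells (range 2717 to 4879). Genes at 5 TPM or more had the same median, 2503.5, in both outer groups. The 10 highest genes took a median of 9.15% of transcripts in the high-score and 9.92% in the low-score cells, and ribosomal protein genes took 19.5% and 19.7%. Of the wells named in the labels, columns 1 to 4 held 9 high-score, 6 middle and 8 low-score cells. Sequencing depth is unknown because TPM keeps none.

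Across the 5862 other genes that were above 0 in at least 12 of the 48 cells, 196 (3.34%) had a mean log2(TPM + 1) at least 2 higher in the high-score cells and 237 (4.04%) at least 2 lower. The median difference was -0.01, with 2892 genes above 0 and 2970 below. For 0 genes (0%) did all 16 cells of a group lie beyond all 16 of the other. A difference on this scale mixes the share of cells that hold a transcript with its level in those cells, and is not a fold change of mean expression. With a pseudocount of 10 in place of 1, the counts were 22 and 20. Counts of gene lists below are to be read beside these 3.34% and 4.04%.

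The same score was applied inside each Ski-KO prefix, to cells that had no part in choosing the Ski-WT groups. This gave 9 high and 9 low cells of 27 in prefix 051716 and 6 and 6 of 19 in prefix 051816. Genes above 0 per cell had a median of 3412 in the high and 2995 in the low cells of 051716. In 051816 these medians were 3588.5 and 4031, the other way round. Genes at 5 TPM or more went the same ways, with 2302 against 1824 and 2234.5 against 2696.5. Whether this moved the Ski-KO differences given below was not tested. Scores differed between the prefixes, with a median of 7.44 in 051716, 5.27 in 051816 and 5.63 in the Ski-WT cells. The low cells of 051716 reached 6.63 and so overlapped in score with the Ski-WT high-score cells. Each prefix holds a single genotype, so an effect of Ski and of whatever the prefix stands for cannot be told apart, and the prefixes are used here as other cells, not as a comparison of genotypes.

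Immediate early genes outside the score were the group with the highest median difference of the lists with at least 5 genes past the filter, at 1.46. Of 52 genes written in the list, 49 were in the table and 20 passed the filter on low values. Among these 20, 7 were at least 2 higher in the high-score cells (3.34% of all genes were) and 0 were at least 2 lower, while 18 lay above 0. The 7 were Zfp36, Klf4, Ppp1r15a, Btg2, Ier2, Cited2 and Klf2, the last named after its value was seen. The list took a median of 0.288% of all transcripts in the high-score cells, 0.200% in the middle cells and 0.0988% in the low-score cells. The list median was 0.75 with Dusp1 left out of the score and 0.32 when all genes above 0 in any cell were kept.

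Zfp36 had the highest difference of all 5862 genes that met the naming rule. Its lowest, median and highest values were 3.30, 8.53 and 10.72 in the high-score cells and 0, 1.19 and 8.88 in the low-score cells. All 16 high-score cells had Zfp36 at 5 TPM or more (interval 79.4% to 100%), against 13 middle cells and 7 low-score cells (interval 19.8% to 70.1%). These exact binomial intervals cover counting error among cells of 1 sample only. The gene was picked for its high difference, so they are no test of it. The low-score cells thus fell into some with almost no Zfp36 and some at the level of high-score cells.

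Mean Zfp36 was 8.20 ± 1.79 (SD, n = 16 cells) in the high-score cells and 3.08 ± 3.33 (SD, n = 16 cells) in the low-score cells. The difference of 5.11 was larger than both SDs, which describe the spread of cells within 1 sample and test nothing. On the linear scale the means were 481 and 72.0 TPM, 6.69-fold apart. Over all 48 cells, Zfp36 had a Pearson's r of 0.66 with Egr1, 0.55 with Fos, 0.34 with Dusp1, 0.26 with Fosb, 0.20 with Jun and 0.19 with Junb.

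Transcription factor genes of the Klf family were among the higher members. Klf4, a zinc finger factor gene, had a lowest, median and highest value of 0, 5.79 and 7.97 in the high-score cells and 0, 0 and 6.97 in the low-score cells, a mean difference of 3.13. Klf4 was at 5 TPM or more in 11 high-score, 2 middle and 3 low-score cells, so the middle cells resembled the low-score cells. Klf6, of the same family, differed by 1.67.

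Ier2, a short nuclear protein gene of the immediate early class, had 0, 6.94 and 9.34 in the high-score cells and 0, 1.05 and 9.49 in the low-score cells. It was at 5 TPM or more in 14, 12 and 7 cells of the high, middle and low groups, and its mean difference was 2.79. The highest Ier2 value of all lay in a low-score cell.

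Other members of the list were found in part of the high-score cells. Btg2, an antiproliferative gene that p53 also induces, reached 5 TPM in 8, 5 and 4 cells and differed by 2.86. Ppp1r15a, which encodes GADD34, the regulatory subunit that reverses stress-induced block of translation, reached 5 TPM in 9, 7 and 5 cells and differed by 3.07. Cited2, a CBP/p300-binding regulator needed by adult stem cells, reached 5 TPM in 9, 5 and 3 cells and differed by 2.46. The medians of Btg2, Ppp1r15a and Cited2 were 0 in the low-score cells, and values ran from 0 in the high-score cells too.

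Myc and Jund were the 2 of the 20 genes below 0 in the Ski-WT cells. Myc differed by -1.38, although its log2 ratio of mean TPM was 0.13. Jund, an AP-1 subunit gene that is less inducible, differed by -0.32. Jund was near the floor, at 5 TPM or more in 0 high-score, 2 middle and 1 low-score cells. Its difference therefore cannot show whether Jund went with the score. Mcl1, a survival gene of the Bcl2 family, differed by 1.64 and Nfkbiz, an atypical inhibitor of NF-kappaB, by 1.45. Nr4a1 and Fosl2 did not pass the filter, and 8 list members, among them Egr3 and Atf3, were at 0 in all 32 cells of the outer groups.

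**Figure D2:**
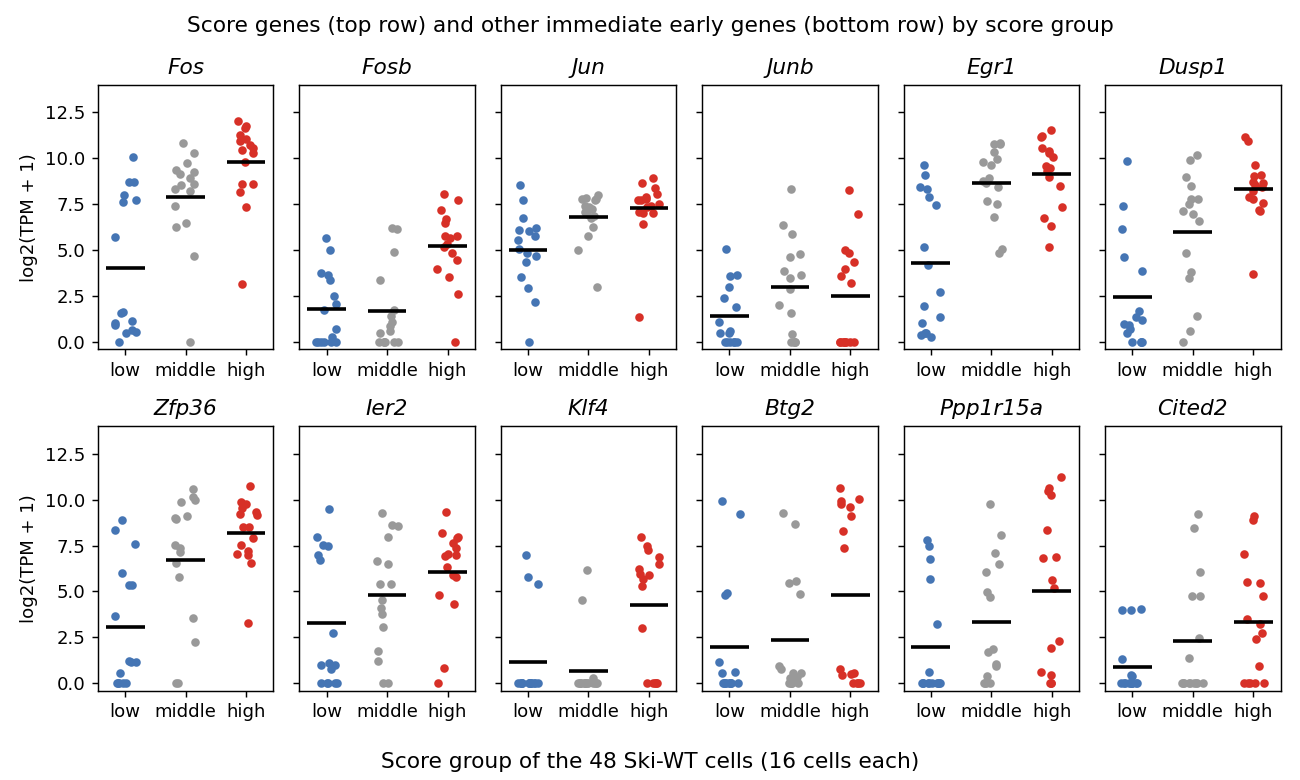
Values of single Ski-WT cells (vertical axis, log2(TPM + 1)) in the low, middle and high groups (horizontal axis) for the 6 score genes (top row) and for 6 other immediate early genes (bottom row), with a black line at the mean of each group. Zfp36 lies at 3.30 or more in every high-score cell and ranges from 0 to 8.88 in the low-score cells.

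The immediate early list showed the same direction in the Ski-KO cells. Its median difference between high and low cells was 1.55 in prefix 051716, with 18 of 20 genes above 0, and 1.27 in prefix 051816, with 17 of 20 above 0. Over all 5862 genes the medians were 0.36 and -0.15. In all 3 prefixes 13 of the 20 genes were higher in the high cells, while 871 of 5862 genes (14.9%) were.

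Zfp36 was again well above its level in low cells, with differences of 5.71 in 051716 and 6.33 in 051816. It was at 5 TPM or more in 9 of 9 high and 3 of 9 low cells of 051716, and in 6 of 6 high and 1 of 6 low cells of 051816. Klf4 differed by 4.07 and 0.27, Ppp1r15a by 1.18 and 5.48, Btg2 by 3.59 and 1.95, and Ier2 by 1.65 and 2.48. Myc had 2.51 and 1.36 in the Ski-KO prefixes. Its value of -1.38 in the Ski-WT cells depended on the scale, since the linear means were 180 TPM in the high-score and 164 TPM in the low-score cells, a log2 ratio of 0.13.

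**Figure D3:**
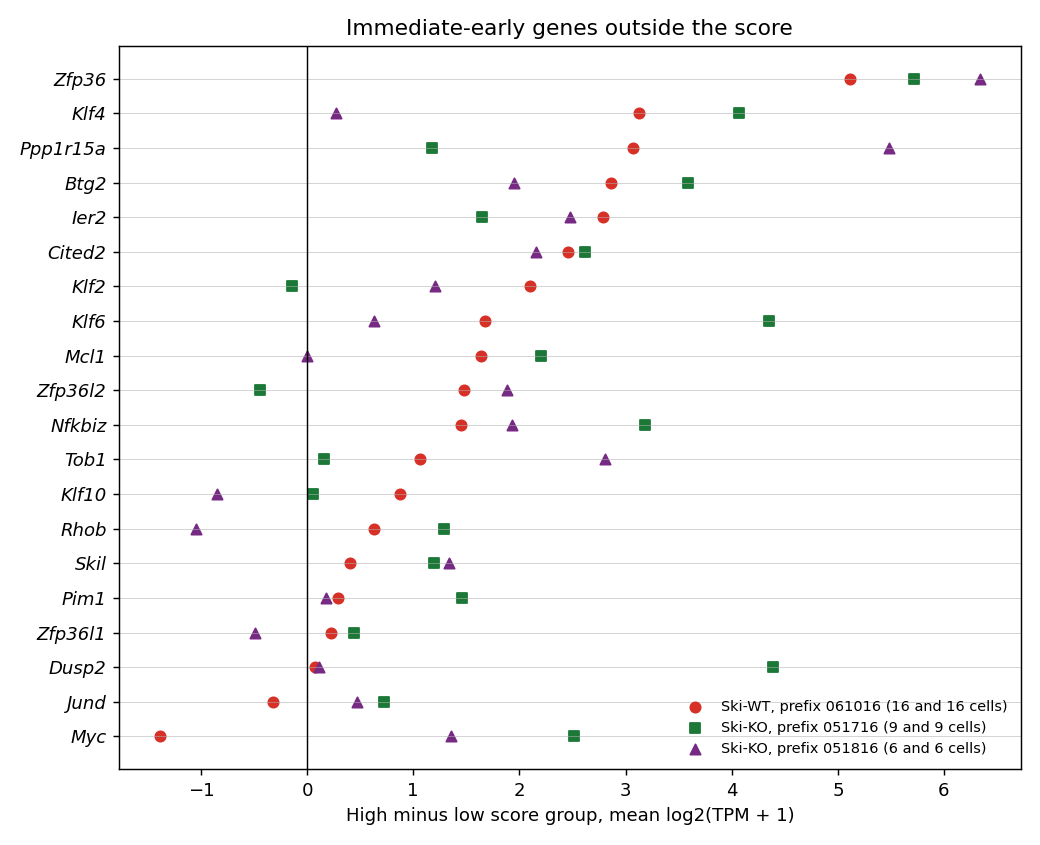
High minus low group in mean log2(TPM + 1) (horizontal axis) for immediate early genes outside the score (rows) in the Ski-WT cells and in both Ski-KO prefixes. Zfp36 stands at 5.11, 5.71 and 6.33, and Myc is at -1.38, 2.51 and 1.36, although its log2 ratio of mean TPM was 0.13 in the Ski-WT cells.

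Outside the immediate early genes, the genes with the highest differences had varied roles. Serpina3g, a serpin gene expressed in blood stem and progenitor cells, had 0, 7.19 and 10.91 in the high-score cells and 0, 0.46 and 9.53 in the low-score cells, a difference of 4.94. Cd59a, which encodes a surface inhibitor of complement, had 0, 6.21 and 10.12 against 0, 0 and 6.68, a difference of 4.36. Both were found in more high-score cells, at 5 TPM or more in 14 against 4 cells for Serpina3g and 11 against 2 for Cd59a.

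Fam134b, a receptor for autophagy of the endoplasmic reticulum, differed by 4.82, and Ncoa4, the receptor for autophagy of ferritin, by 4.64. Others were Eif3i (4.39), Bgn (4.34), Sat1 (3.83), Hhex (3.61), AI467606 (3.52) and Gimap6 (3.50).

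Few of the 12 highest genes kept their size in the Ski-KO cells. In prefix 051716, 10 of the 12 had a difference above 0, where 62.5% of all genes did, and in 051816 it was 5 of 12, where 44.1% did. Zfp36 was past 2 in both. Cd59a had 2.59 and 1.93, while Serpina3g had 1.88 and -1.58, Ncoa4 had 0.04 and -0.32, Bgn had 1.56 and -3.06 and Hhex had -2.37 and 1.03.

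The genes with the lowest differences had varied roles. Dpm3, a subunit of the enzyme that makes dolichol phosphate mannose for glycosylation, had 0, 0 and 7.87 in the high-score cells and 0, 6.49 and 10.81 in the low-score cells, a difference of -4.82. Eprs, the glutamyl-prolyl-tRNA synthetase gene, had 0, 0.28 and 4.22 against 0, 6.97 and 9.39, a difference of -4.58. Dbi, which encodes the acyl-CoA binding protein, was at 5 TPM or more in 8 high-score and 15 low-score cells and differed by -4.19. Both groups had cells at 0 for each of these genes.

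Mrps18c and Mrpl21, both of the mitochondrial ribosome, were among the 12 lowest genes, and no wider list of such genes was examined. Mrps18c, of the small mitochondrial ribosomal subunit, differed by -3.86, and Mrpl21, of the large mitochondrial ribosomal subunit, by -3.58. Others were Ntan1 (-4.32), Fam96a (-4.04), Emc2 (-4.03), Rtcb (-4.02), D19Bwg1357e (-3.72) and Tbca (-3.63). Eprs (4.08 and 1.13) and Dbi (1.78 and 2.56) lay above 0 in both Ski-KO prefixes. Mrps18c (-2.64 and -2.29), Mrpl21 (-0.14 and -2.91) and Dpm3 (-1.19 and -2.30) lay below 0 in both.

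Stem cell transcription factor genes lay on both sides of 0. Of 30 listed genes 23 passed the filter, 0 were at least 2 higher and 1 was at least 2 lower in the high-score cells, 10 lay above 0 and 13 below, and the median was -0.41. Hlf, a PAR bZIP factor gene of long-term stem cells, had 0, 6.49 and 8.58 in the high-score cells and 0, 4.51 and 8.50 in the low-score cells, a difference of 1.75. Mecom, which encodes Evi1, differed by 1.44 and Mllt3 by 1.63, both below the limit of 2.

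Meis1, a homeobox partner of Hox proteins that was abundant in nearly every cell, differed by 0.01, and Gata2 by -0.26. Hlf (3.43 and 1.45) and Mecom (1.79 and 0.61) lay above 0 in both Ski-KO prefixes, and Runx1 (-1.33 in Ski-WT, -1.16 and -0.43 in Ski-KO) lay below 0 in all 3. The list median was 1.20 in 051716 and 0.50 in 051816. In the Ski-WT cells its sign was not stable, with 0.27 by the log2 ratio of mean TPM and 0.22 with the 12 highest against the 12 lowest cells.

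Surface and effector genes of stem cells included 4 of 25 measured genes at least 2 higher in the high-score cells (3.34% of all genes were). None of them, 0 of 25, was at least 2 lower. The median was 0.41, with 16 genes above 0 and 9 below. Pdzk1ip1, which encodes the membrane protein MAP17 and marks long-term stem cells, had 4.80, 9.68 and 10.998 in the high-score cells and 0, 6.81 and 10.70 in the low-score cells, a difference of 3.44. It was at 5 TPM or more in 16 high-score cells but only 11 middle and 11 low-score cells. Every high-score cell thus held Pdzk1ip1, although many low-score cells held as much.

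Ifitm1, an interferon-inducible membrane protein gene, had 6.93, 10.85 and 12.002 in the high-score cells and 0, 9.93 and 12.29 in the low-score cells, a difference of 2.01. It was at 5 TPM or more in 16, 13 and 14 cells of the high, middle and low groups. Procr, the gene of the protein C receptor, differed by 2.57 but reached 5 TPM in only 7, 4 and 5 cells, and Esam, an adhesion molecule gene, differed by 2.48 with 8, 5 and 3 cells. Cd34 differed by 1.70, Kit by -0.32, Ly6a, which encodes Sca-1, by -0.54, and Cd9 by -1.86.

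In the Ski-KO cells, the surface and effector list had medians of 1.43 in 051716 and 0.26 in 051816. Procr (1.43 and 3.78), Ifitm1 (2.75 and 2.61) and Cd34 (1.88 and 1.23) lay above 0 in both prefixes. Pdzk1ip1 differed by -0.03 in 051716 and 4.25 in 051816, and Esam by -0.42 and -0.69.

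**Figure D4:**
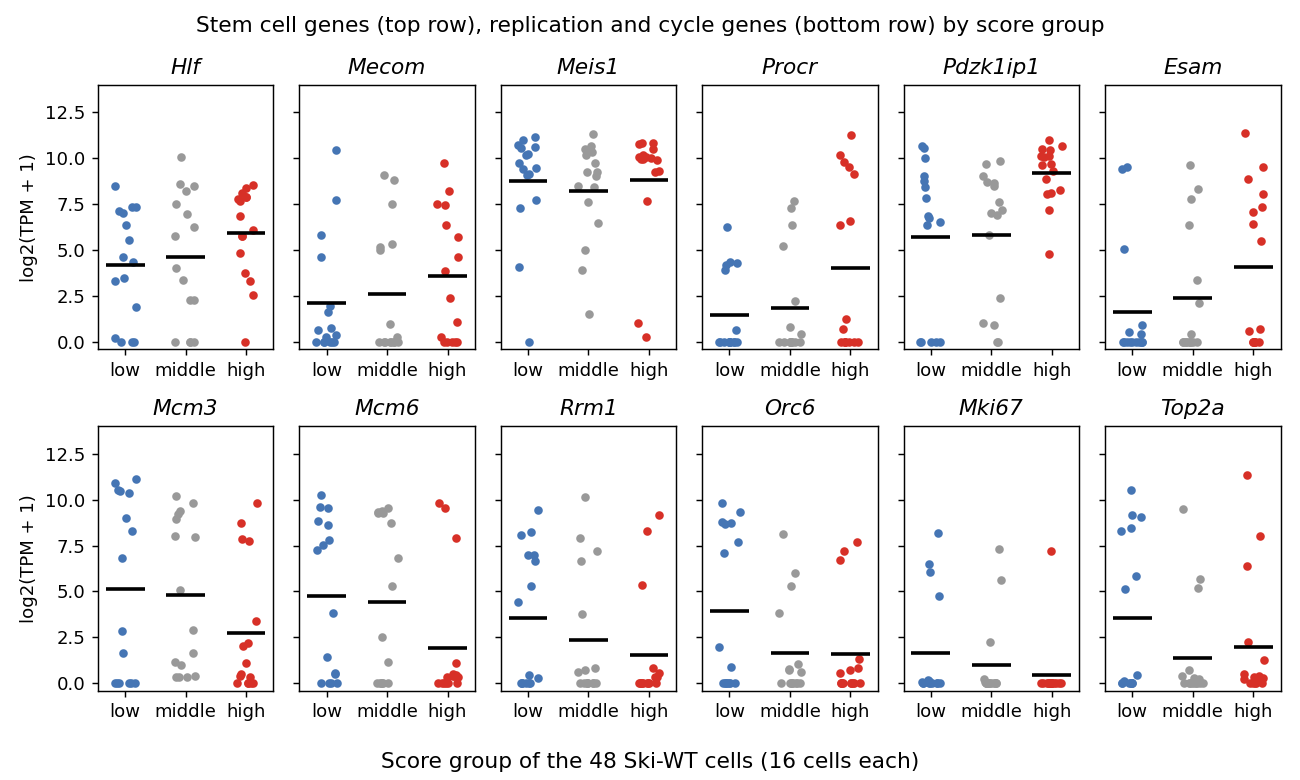
Values of single Ski-WT cells (vertical axis, log2(TPM + 1)) in the low, middle and high groups (horizontal axis) for stem cell genes (top row) and for replication and mitotic genes (bottom row), with a black line at the mean of each group. Pdzk1ip1 is at 4.80 or more in all 16 high-score cells. Mcm6 has a median of 0.37 in the high-score and 5.55 in the low-score cells. It spreads over a like range in both, from 0 to 9.80 and from 0 to 10.27.

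Genes of DNA replication were lower in the high-score cells, with 4 of 24 measured genes at least 2 lower (4.04% of all genes were), 0 at least 2 higher and 21 of 24 below 0. The median difference was -1.04. Mcm6, a subunit of the replicative helicase, had 0, 0.37 and 9.80 in the high-score cells and 0, 5.55 and 10.27 in the low-score cells, a difference of -2.82. Mcm3, of the same helicase, differed by -2.37, Rfc4, a subunit of the clamp loader, by -2.04, and Rrm1, the large subunit of ribonucleotide reductase, by -2.001.

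Replication transcripts were unevenly spread over the cells of each group. The number of the 30 listed replication genes at 5 TPM or more had a median of 4.5 in the high-score cells (range 1 to 22), 7 in the middle cells (1 to 25) and 5 in the low-score cells (1 to 28). Cells with 15 or more of these genes numbered 2 high-score, 2 middle and 5 low-score cells. Pcna, the sliding clamp gene, differed by 0.08 and Rfc5 by 1.74. The typical cell of each group therefore held few replication transcripts.

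Mitotic genes had a median of -0.49, with 13 of 15 measured genes below 0 and 0 past 2 in either direction. Top2a, a topoisomerase gene of dividing cells, differed by -1.61 and was at 5 TPM or more in 3 high-score, 3 middle and 7 low-score cells. Mki67, the Ki-67 gene, differed by -1.17, with 1, 2 and 4 cells. Mitotic transcripts were likewise concentrated in few cells, and 10 or more of these genes at 5 TPM were found in 1 high-score, 1 middle and 4 low-score cells. Each group held 5 cells without any mitotic gene at that level.

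Both cycle lists had medians below 0 in the Ski-KO cells too. The replication median was -0.49 in 051716 and -1.60 in 051816, and the mitotic median was -1.01 and -1.59. In 051716, 9 of the 24 replication genes lay above 0, where 62.5% of all genes did, and 15 lay below. Mcm6 differed by 0.73 in 051716 and by -3.66 in 051816. Lower values in all 3 prefixes were seen for 11 of 24 replication genes and 11 of 15 mitotic genes, compared with 661 of all 5862 genes (11.3%). Genes of a cell in cycle are present together, so members of these lists are not independent. Cells with 15 or more replication genes were again few, with 2 high and 2 low cells of 051716 and 1 high and 4 low cells of 051816. In the Ski-WT cells, 0 of 9 G1 cyclins and kinases (median -0.38) and 0 of 9 CDK inhibitors and other quiescence genes (median 0.10) were past 2. Cdkn1b, which encodes p27, differed by 0.67 there, and Cdkn1a and Cdkn1c did not pass the filter. The G1 list had a median of 0.84 in 051716, with 2 genes at least 2 higher and 1 at least 2 lower. In 051816 its median was -1.87, with 4 of 9 genes at least 2 lower (13.7% of all genes were). The quiescence list had medians of 0.16 and -0.08. In 051816, 3 of its 9 genes were at least 2 higher (7.52% of all genes were), and in 051716 it had 0 past 2.

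The chaperone and unfolded protein lists had medians near that of all genes in the Ski-WT cells. Heat shock chaperone genes had a median of -0.07, with 10 of 22 above 0, and 2 at least 2 higher, among them Dnaja2 (2.85), a co-chaperone gene. Hspa8, the constitutive Hsp70 gene, differed by -0.10, and the inducible Hspa1a and Hspa1b did not pass the filter. Genes of the unfolded protein and integrated stress responses had a median of -0.11 over 15 genes, with Ppp1r15a and Dnajc3 (2.23) at least 2 higher and Herpud1 (-2.03) and Pdia6 (-2.02) at least 2 lower. Hspa5, the main chaperone of the endoplasmic reticulum, differed by -1.99 in the Ski-WT cells and by -2.38 and -4.09 in the Ski-KO prefixes. The heat shock median was 0.79 in 051716 and 0.25 in 051816. That of the unfolded protein and integrated stress list was 0.22 and -1.40. Over all genes the medians there were 0.36 and -0.15.

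Targets of p53 had a median of -0.77 over 10 genes, with Btg2 the only one at least 2 higher, and of the NF-kappaB list Rela (-2.16), a DNA-binding subunit, was the only one of 9 past 2. Nfkbia, the feedback inhibitor gene of NF-kappaB, differed by -0.86. The NF-kappaB list median was 0.09 in the Ski-WT cells, 1.79 in 051716 and 0.88 in 051816. Redox genes had a median of 0.13 over 20 genes, where Prdx5, a peroxiredoxin gene, differed by -3.24. Interferon response genes had a median of 0.48, with 13 of 16 above 0 and Isg20 (2.07) past 2, but the median was 0.18 and -0.31 in the Ski-KO prefixes. All 5 measured genes of the Bcl2 family lay above 0, with a median of 0.92, against -0.19 and -0.07 in the Ski-KO cells.

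Transcripts of upstream signalling, of feedback inhibitors and of AP-1 partners had lower median differences than the immediate early list in the Ski-WT cells. MAP kinase cascade and serum response factor genes had a median of 0.31 over 17 genes, with 9 above 0 and 8 below. Braf, a kinase at the head of the cascade, differed by 2.21, and Mapk14, which encodes p38 alpha, by -3.02. MAP kinase feedback inhibitors other than Dusp1 had a median of -0.01 over 6 genes, and the bZIP partners of AP-1 had 0.59 over 11 genes, with 0 past 2 in either list. The bZIP median was -0.0069 with Junb left out of the score, and the feedback median was 1.26 by the log2 ratio of mean TPM. In 051716 and 051816 the feedback inhibitors had medians of 1.81 and -0.88, and the bZIP partners had 0.72 and 0.47. TGF-beta pathway genes, in which Ski acts, had a median of 0.29 over 8 genes with 0 past 2, and Skil, the paralogue of Ski, differed by 0.41. Ski itself did not pass the filter.

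Oxidative phosphorylation genes were lower in the high-score cells, with 10 of 62 at least 2 lower (4.04% of all genes were). Of the 62 genes, 48 lay below 0 and 1 (Ndufs3, 2.99) was at least 2 higher. The median difference was -0.67. Per cell, the mean over the list had a median of 5.57 in the high-score cells, 5.95 in the middle cells and 6.57 in the low-score cells. Among the lowest were Ndufs6 (-3.29), of complex I, and Cox5b (-3.04), of cytochrome oxidase. The direction was not shared by all prefixes, since the median was 0.99 in 051716 and -0.37 in 051816. Ribosomal protein genes had a median of -0.07 over 80 genes, with 1 past 2.

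**Figure D5:**
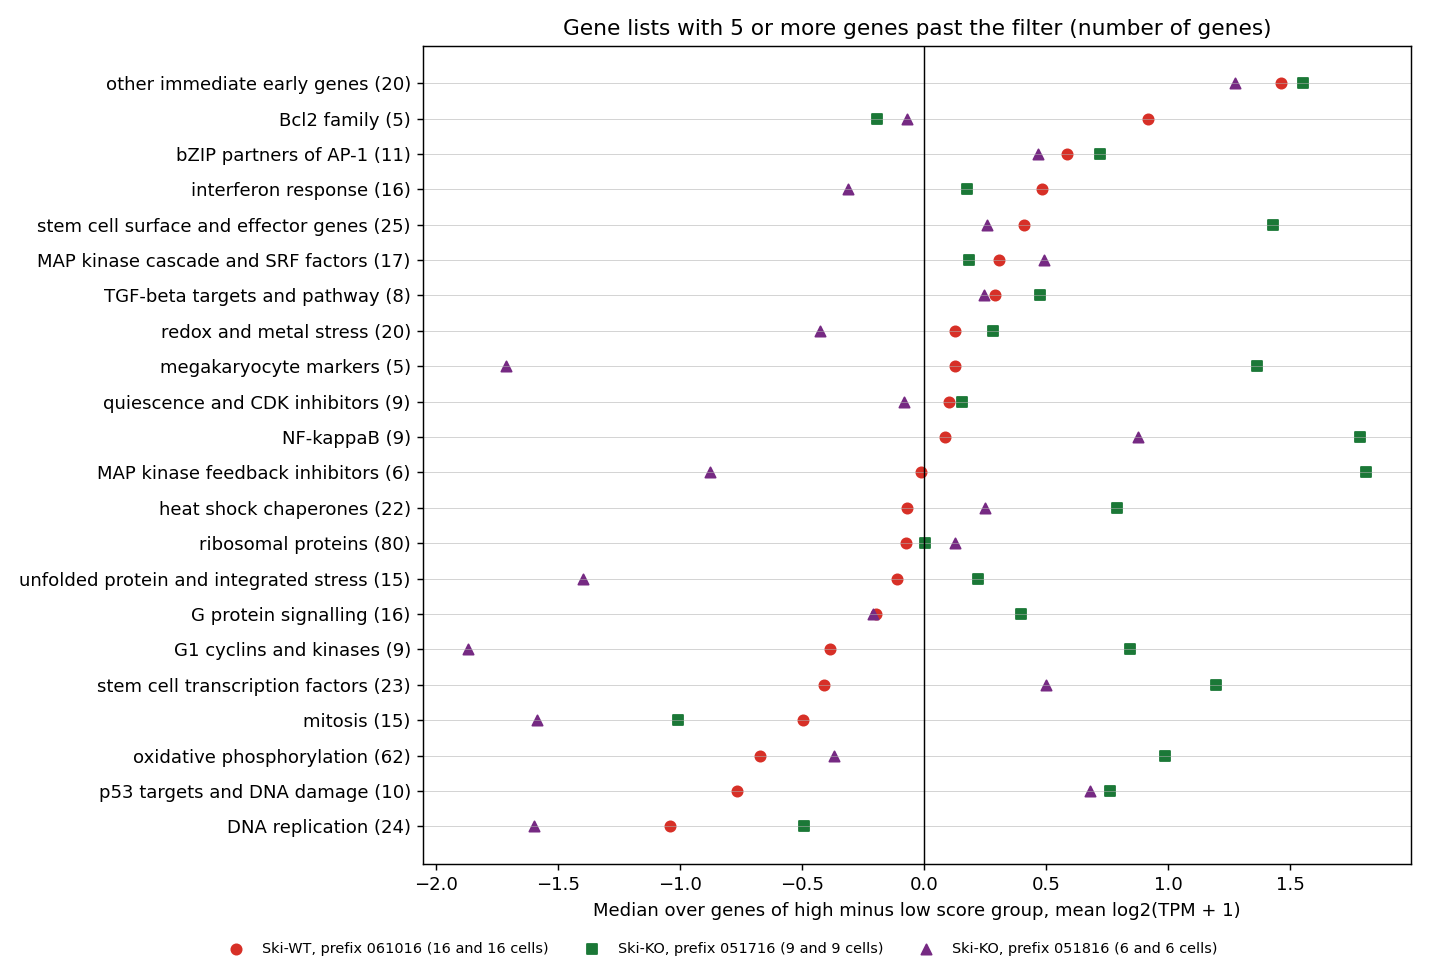
Median over genes of the difference between high and low groups (horizontal axis, mean log2(TPM + 1)) for each gene list with 5 or more genes past the filter (rows, number of genes in brackets), in the Ski-WT cells and both Ski-KO prefixes. The other immediate early genes lie at 1.46, 1.55 and 1.27, DNA replication lies below 0 in all 3, and oxidative phosphorylation lies at -0.67, 0.99 and -0.37.

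Markers of other cell types that the gate could hold differed in abundance. Of 16 neutrophil and monocyte markers 3 passed the filter, and 9, among them Mpo, Elane, Ctsg and Csf1r, were at 0 in all 32 cells of the outer groups. The 3 were higher in the high-score cells, Prtn3 by 2.23, Lyz2 by 1.92 and Csf3r by 1.35, although Prtn3 was at -0.22 by the log2 ratio of mean TPM. The list took a median of 0.0773% of transcripts in the high-score cells, with a highest value of 0.213%, and 0.0277% in the low-score cells, with a highest value of 0.268%. Erythroid markers took more, with a median of 0.510% in the high-score cells (range 0.0821% to 0.810%), 0.387% in the middle cells and 0.178% in the low-score cells (range 0.0342% to 0.782%). Car2, the carbonic anhydrase 2 gene of that list, was at 5 TPM or more in all 48 cells, with means of 11.95 in the high-score and 10.90 in the low-score cells, while 5 of 12 erythroid markers, among them Klf1, were at 0 in all 32 cells. The part of these markers in the differences above was not tested. Mast cell and macrophage markers had 0 genes past the filter, with 5 of 5 and 8 of 11 at 0 in all 32 cells. Erythroid markers had 2 genes past the filter and lymphoid markers 3, with 0 of these past 2, and of 5 megakaryocyte genes Selp (2.10), which encodes P-selectin, was past 2, while Pf4 differed by -1.94.

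Over all genes, the differences seen in the Ski-WT cells recurred only in part in the Ski-KO cells. Of the 196 genes at least 2 higher in the high-score Ski-WT cells, 141 (71.9%) were higher in 051716, where 62.5% of all genes were, and 90 (45.9%) in 051816, where 44.1% were. Of the 237 at least 2 lower, 104 (43.9%) were lower in 051716 against 37.1% of all genes, and 153 (64.6%) in 051816 against 54.9%. Pearson's r of the differences across the 5862 genes was between 0.05 and 0.07 for each pair of prefixes, a description across genes that are not independent replicates.

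A set of 16 genes, picked after their values were seen, was past 2 in the same direction in all 3 prefixes. In the Ski-KO prefixes alone, 11.4% of genes were at least 2 higher and 3.51% at least 2 lower in 051716, and 7.52% and 13.7% in 051816. The 10 higher genes included Zfp36, Capns1 (3.08, 2.53 and 2.98 in Ski-WT, 051716 and 051816), Klhl6 (2.83, 2.98 and 3.20), Ccdc6 (2.77, 4.80 and 4.11), Cited2 (2.46, 2.62 and 2.16), Ptk2b (2.38, 2.45 and 2.81), Tagap1 (2.14, 3.86 and 2.78), Vps28 (2.03, 4.63 and 2.36) and Ifitm1. Capns1 encodes the small subunit of calpain, and Ptk2b encodes Pyk2, a calcium-sensitive kinase that acts upstream of MAP kinases.

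The 6 lower genes were Mrps18c, Orc6 (-2.36, -2.65 and -4.43), 1190002F15Rik (-2.38, -4.14 and -3.15), 2700029M09Rik (-2.34, -2.27 and -2.55), Tuba4a (-2.14, -2.71 and -2.32) and Rrm1 (-2.001, -2.89 and -2.17). Orc6, a subunit of the origin recognition complex, and Rrm1 belong to DNA replication. Orc6 was at 5 TPM or more in 3 high-score and 7 low-score Ski-WT cells, in 2 and 5 cells of 051716 and in 1 and 4 cells of 051816.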

How the data were processed

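Single-cell values were deposited as log2(TPM + 1), as read from the values, which sum to between 997625 and 999995 TPM per cell after back-transformation. Bowtie2, RSEM and mm9 are named, without roles or versions, per the submitters' processing notes. Depth per cell is unknown and there are no molecular identifiers. The table held 13244 genes, of which 1463 were at 0 in all Ski-WT cells. The highest Pearson correlation between 2 Ski-WT cells was 0.53, so no pair held duplicate values. No cell was removed, and no doublet caller was run.

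The difference of a gene is the mean log2(TPM + 1), pseudocount 1, over the 16 high-score cells minus that over the 16 low-score cells. A gene was kept when above 0 in at least 12 of the 48 cells (25%), and with the score genes taken out 5862 remained. Differences of 2 or more were counted. Detection meant 5 TPM or more, with exact Clopper-Pearson intervals at 95%. No test was made, since each prefix is 1 sample. The 28 gene lists and the members were chosen with earlier results of these data known. Named genes were the score genes, the 12 highest and 12 lowest differences whose share of cells and linear mean ratio had the same direction, up to 4 members in each direction of each list described, and some genes always reported. Some genes that this rule takes are not reported here. Counts of cells with many cycle genes and the set shared by all prefixes were chosen after values were seen. Alternatives covered pseudocounts, linear means, scaling, a covariate for genes above 0, filters, sizes of the score groups, changed scores and leaving out single cells. The arithmetic of the difference was checked on shuffled values with known shifts added, which says nothing about the results themselves. Calculations ran in Python 3.11.15 with pandas 2.3.3, numpy 2.4.6 and scipy 1.17.1, and plots were drawn with matplotlib 3.10.9.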

Additional observations from a re-analysis of the deposited data

Results flagged for a closer look

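In the 9 low-score Ski-KO cells of prefix 051716, 1 cell had a score of 0, far from the other low cells. In the 9 high-score cells of that prefix, the highest score, 9.74, also stood apart from the rest. Chance sets apart about 1 in 20 groups of unselected values, but these cells were ranked on this same score, so that rate does not apply and the gaps are a description only.

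Eprs (-4.58), Dbi (-4.19) and Rela (-2.16) were lower in the high-score Ski-WT cells and higher in the high-score cells of both Ski-KO prefixes. The median of the p53 target list was -0.77 in the Ski-WT cells and 0.76 and 0.68 in the Ski-KO prefixes. These differences in direction were not tested.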

How the results depend on the processing

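The number of genes past 2 depended on the scale and on the group size. The 196 higher genes became 22 with a pseudocount of 10, 497 with 0.1, 648 by the log2 ratio of mean TPM, 329 with the 12 highest against the 12 lowest cells, 93 with 24 against 24 and 109 with a filter of 50% of cells. The 237 lower genes became 20, 600 and 594 in the first 3 of these settings, 59 with 24 against 24 cells and 145 with the 50% filter. The median of the other immediate early genes was 0.75 with a score without Dusp1 and 0.32 with no filter. That of the bZIP partners was -0.0069 with a score without Junb, and that of the MAP kinase feedback inhibitors was 1.26 by the log2 ratio of mean TPM. Prtn3 was at -0.22 by that ratio. The cause was not tested. Medians that turned sign within the spread under at least 1 alternative included those of stem cell transcription factors (-0.56 to 0.27), the MAP kinase cascade (-0.15 to 0.48), CDK inhibitors (-0.89 to 0.85) and G1 cyclins (-1.02 to 0.13). Below a difference of 2, Myc (-2.02 to 0.13), Mecom (-0.01 to 2.40), Cd9 (-2.77 to 0.22) and Skil (-0.11 to 2.08) did so too. Of 436 recomputed list medians 432 stayed within the spread, and of 65 named genes past 2, 1 (Prtn3) turned its direction. Leaving out 1 score gene kept 13 to 16 of the high-score and 14 to 16 of the low-score cells, and 0 cells switched sides. No paired analysis was possible because each deposited sample is a cell of 1 genotype and no test was made.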
